A study of Mus musculus with 8 samples.

Results

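The transcripts described here belong to interferon-induced antiviral effectors outside the large Ifit, Oas, Gbp, Trim and p200 families, followed in mouse fibroblasts that switch pyruvate kinase isoform. They were chosen by name, as 10 genes: Isg15, Rsad2, Cmpk2, Mx1, Mx2, Bst2, Xaf1, Rtp4, Parp14 and Ifi44. A probe set, the group of array probes that reports 1 transcript, was taken when its annotated symbol was 1 of these names or included it among several. This gave 9 probe sets of 35556 on the array, 1 for each of 9 genes. Ifi44 matched no named probe set and is not analysed here. The Isg15 probe set also carries the symbol Gm9706, so its values cannot be assigned to Isg15 alone.

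RNA came from primary mouse embryonic fibroblasts, cells cultured from embryos, of line A (MEF10) and line B (MEF16). Each line was sampled as (-)Tamoxifen cells, labelled as expressing the PKM2 isoform of pyruvate kinase, and as (+)Tamoxifen cells, labelled as expressing PKM1, with 2 samples in each of the 4 groups and 8 Affymetrix arrays in all. The labels used here give the drug as a plus or minus and name no dose, duration, recombinase, driver or strain; each line stands for itself, and tamoxifen and the isoform switch cannot be told apart, since every PKM1 sample had the drug. Some label fields speak of mammary tumors where titles, source and design text name fibroblasts. Values are RMA log2 expression values. A difference is the log2 value with tamoxifen minus that without, given with its standard error (SE) from limma, and a transcript is said to have risen or fallen when its Benjamini-Hochberg adjusted p over 23410 named probe sets was under 0.05.

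Array medians over all probe sets lay between 7.17 and 7.24, and samples of a group correlated at 0.9907 to 0.9978, the lower values in line B. Whether the 2 samples of a group came from separate cultures is not given in the labels, and the p-values thus reflect a spread between arrays that may be technical. The Pkm probe sets, which do not separate its isoforms here, differed by -0.11 (SE 0.15) and -0.41 (SE 0.19), and neither passed the test (adjusted p = 0.89 and 0.52). The means of 12 fibroblast markers lay between 8.13 and 13.19 and those of 12 mammary epithelial markers between 5.52 and 8.52, with no detection calls to tell a dim probe set from an absent transcript.

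Interferons are secreted proteins that bind receptors on the cell surface, activate the kinases JAK1 and TYK2, and through them transcription factors, STAT2 and IRF9 among them, that bind a DNA element called the interferon-stimulated response element. The genes switched on in this way include effectors that act at different steps of a viral life cycle. Isg15 is a ubiquitin-like protein attached to other proteins. Rsad2 (viperin) makes a nucleotide that ends viral RNA chains, and Cmpk2 is a mitochondrial nucleotide kinase. Mx1 and Mx2 are GTPases of the dynamin family. Bst2 (tetherin) holds budding virus at the membrane, Rtp4 is a transport protein for membrane receptors that also acts against viruses, Xaf1 binds the apoptosis inhibitor XIAP, and Parp14 attaches ADP-ribose to proteins. Fibroblasts are a classical cell for measuring this response.

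Promoter sequences from RefSeq (GRCm38.p6), 250 bases before to 50 after the start of the gene, were present for 6 of the 10 genes, Isg15, Rsad2, Cmpk2, Bst2, Xaf1 and Ifi44. They were searched on both strands for a pair of GAAA on 1 strand with any 2 bases between them, the core of the response element, with overlapping matches counted. It was present in 3.44% of the 32851 promoters listed for all genes. Isg15 had 3 overlapping matches, between bases -78 and -57 from the start. Bst2 had 2 overlapping ones, between -130 and -115, on the same strand as the gene. Rsad2 had 1 on the opposite strand, at -120 to -111. Xaf1, Cmpk2 and Ifi44 had 0 in this window, which says only that these letters were not found there. The promoters of Isg15 (chr4:156200769-156201068, minus strand), Bst2 (chr8:71537423-71537722, minus strand), Rsad2 (chr12:26456403-26456702, minus strand) and Xaf1 (chr11:72301379-72301678, plus strand) are printed because their transcripts are the ones with a promoter here whose samples with and without tamoxifen did not overlap; they read 5′ to 3′ along the gene, and capitals mark the GAAA pairs of either strand.
Isg15: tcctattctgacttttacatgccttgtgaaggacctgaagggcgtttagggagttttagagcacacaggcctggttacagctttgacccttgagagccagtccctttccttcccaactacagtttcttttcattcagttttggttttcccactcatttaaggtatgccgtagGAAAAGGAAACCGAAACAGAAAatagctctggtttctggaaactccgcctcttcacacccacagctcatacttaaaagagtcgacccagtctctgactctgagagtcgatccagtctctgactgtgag
Bst2: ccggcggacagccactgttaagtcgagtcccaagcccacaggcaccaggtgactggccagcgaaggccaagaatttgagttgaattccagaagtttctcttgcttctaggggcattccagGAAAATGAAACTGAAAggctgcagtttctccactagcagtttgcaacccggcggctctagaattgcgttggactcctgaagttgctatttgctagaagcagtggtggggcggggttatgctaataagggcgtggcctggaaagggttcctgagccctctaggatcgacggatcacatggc
Rsad2: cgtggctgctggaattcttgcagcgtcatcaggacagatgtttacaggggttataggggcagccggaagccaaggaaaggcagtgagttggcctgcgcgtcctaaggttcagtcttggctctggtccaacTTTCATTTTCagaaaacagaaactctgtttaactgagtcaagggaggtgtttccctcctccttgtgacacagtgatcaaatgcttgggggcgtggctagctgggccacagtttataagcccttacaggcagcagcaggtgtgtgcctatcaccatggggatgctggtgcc
Xaf1: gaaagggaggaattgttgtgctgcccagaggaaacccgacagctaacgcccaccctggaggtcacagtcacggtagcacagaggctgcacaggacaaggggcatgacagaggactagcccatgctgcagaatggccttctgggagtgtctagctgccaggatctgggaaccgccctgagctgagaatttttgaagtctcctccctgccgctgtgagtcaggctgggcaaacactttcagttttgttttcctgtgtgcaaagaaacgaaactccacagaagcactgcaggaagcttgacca

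With tamoxifen, 5 of the 9 effector transcripts rose over both lines, those of Rtp4, Xaf1, Isg15, Bst2 and Parp14, 0 fell, and Rsad2, Mx2, Cmpk2 and Mx1 did not pass. Over all 23410 probe sets tested, 0.701% rose and 0.41% fell, 1.11% in either direction. The median difference of the 9 was 0.52, from -0.04 to 1.47, against -0.01 over all probe sets. For 6 of the 9, the 5 that rose and Rsad2, the 4 samples with tamoxifen all lay above the 4 without, which held for 2.62% of all probe sets. The members and the lists used here were chosen with earlier results of these data known, so these counts describe them and are no independent evidence of a direction.

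The probe set of Isg15 read 7.29 and 7.50 in line A without tamoxifen and 8.22 and 8.32 with it. In line B it read 7.30 and 7.34 without and 8.43 and 8.21 with. Every sample with tamoxifen was thus above every sample without, with a gap of 0.71 between the nearest ones, and the samples of the lines overlapped in each condition. The rise over both lines was 0.94 (SE 0.08, n = 8 samples, adjusted p = 0.0014), 1.92-fold with a 95% interval of 1.70 to 2.17. Isg15 is both secreted and joined to proteins by a dedicated set of enzymes. Of 5 genes of that system, 2 rose, where 0.701% of all probe sets did. They were Usp18, which removes Isg15 from proteins and also restrains the interferon receptor (1.26, SE 0.09, adjusted p = 6e-04), and Trim25, a ligase (0.46, SE 0.08, adjusted p = 0.026). The activating enzyme Uba7 differed by 0.12 (SE 0.09), the conjugating enzyme Ube2l6 by 0.21 (SE 0.07) and the ligase Herc6 by 0.21 (SE 0.10), and none of these 3 passed (adjusted p = 0.76, 0.28 and 0.53).

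Rsad2 and Cmpk2, both acting on nucleotides, are next to each other on chromosome 12 with 0 genes between them in the RefSeq table. Rsad2 read 5.93 and 5.67 in line A without tamoxifen and 6.15 and 6.25 with it, and 5.79 and 5.79 in line B without and 6.10 and 6.41 with. Its conditions did not overlap, with a gap of 0.17. The difference of 0.43 (SE 0.09, 95% interval 0.23 to 0.63) lay just outside the threshold, with an adjusted p of 0.055. Cmpk2 read 5.62 and 5.54 in line A without and 5.73 and 5.93 with tamoxifen, and 5.72 and 5.87 in line B without and 5.80 and 5.98 with. Its conditions were separated in line A and overlapped in line B. Over both lines it differed by 0.17 (SE 0.08, 95% interval -0.01 to 0.35, adjusted p = 0.53).

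The GTPase transcripts Mx1 and Mx2 are near each other on chromosome 16, and the RefSeq table of the C57BL/6J genome lists both as transcribed pseudogenes. Mx2 read 5.46 and 5.73 in line A without and 5.92 and 6.32 with tamoxifen, and 5.96 and 5.62 in line B without and 6.18 and 6.39 with. Within each line the samples with tamoxifen were higher, and the conditions overlapped only across lines, where the lowest sample with tamoxifen (line A) was 0.04 below the highest one without (line B). The difference of 0.52 (SE 0.11, 95% interval 0.26 to 0.77) did not pass, with an adjusted p of 0.075. Mx1 stayed between 4.48 and 4.68 in all 8 samples, differed by -0.04 (SE 0.07, 95% interval -0.20 to 0.12, adjusted p = 0.91) and overlapped between conditions in both lines. Among the means of all probe sets, that of Mx1 was at percentile 8.6, and those of Cmpk2, Mx2 and Rsad2 were at percentiles 20.6, 23.1 and 24.2. No detection calls were used.

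Bst2 and Rtp4 encode proteins of the membrane system, and both rose. Rtp4 had the largest difference of the 9 and the fifth largest rise of all probe sets tested. It read 7.65 and 7.80 in line A without and 9.08 and 9.43 with tamoxifen, and 7.51 and 7.15 in line B without and 8.87 and 8.60 with. The conditions were 0.80 apart at their nearest, and line B lay below line A in each condition. The rise was 1.47 (SE 0.11, adjusted p = 0.00079), 2.77-fold (95% interval 2.33 to 3.29). Bst2 read 7.99 and 8.03 in line A without and 8.47 and 8.66 with tamoxifen, and 8.05 and 8.10 in line B without and 8.62 and 8.50 with. The 4 samples without tamoxifen were close together, and the nearest sample with it was 0.37 higher. Bst2 rose by 0.52 (SE 0.07, adjusted p = 0.0078), 1.43-fold (95% interval 1.29 to 1.60).

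Xaf1 and Parp14 act inside the cell on cell death and on protein ADP-ribosylation. Xaf1 read 7.20 and 7.52 in line A without and 8.82 and 9.02 with tamoxifen, and 7.63 and 7.14 in line B without and 8.68 and 8.72 with. The conditions were 1.06 apart at their nearest, the widest gap of the 9. Xaf1 rose by 1.44 (SE 0.12, adjusted p = 0.0014), 2.71-fold (95% interval 2.25 to 3.26). Parp14 read 7.00 and 6.92 in line A without and 7.52 and 7.51 with tamoxifen, and 7.16 and 6.83 in line B without and 7.36 and 7.50 with. Its conditions were 0.20 apart, and its rise of 0.49 (SE 0.08, adjusted p = 0.024) is 1.41-fold (95% interval 1.24 to 1.60). The call of Parp14 was lost without any 1 of the 4 line A samples (adjusted p = 0.093 without PKM2 replicate 1 and 0.12 without each of the other 3) and without line B PKM2 replicate 2 (0.058), with the difference between 0.44 and 0.50 in these fits, and when every probe set of the array was tested (0.099). The count of all probe sets called was 68 to 98 without a line A sample and 187 without line B PKM2 replicate 2, against 260 with all samples. Over all alternatives the adjusted p of Parp14 ran from 0.00076 to 0.12. Parp9 and Dtx3l, partners of each other that lie beside Parp14 on chromosome 16 with 0 protein-coding genes between Dtx3l and Parp14, rose by 0.77 (SE 0.12, adjusted p = 0.014) and 0.58 (SE 0.07, adjusted p = 0.0057).

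**Figure D1:**
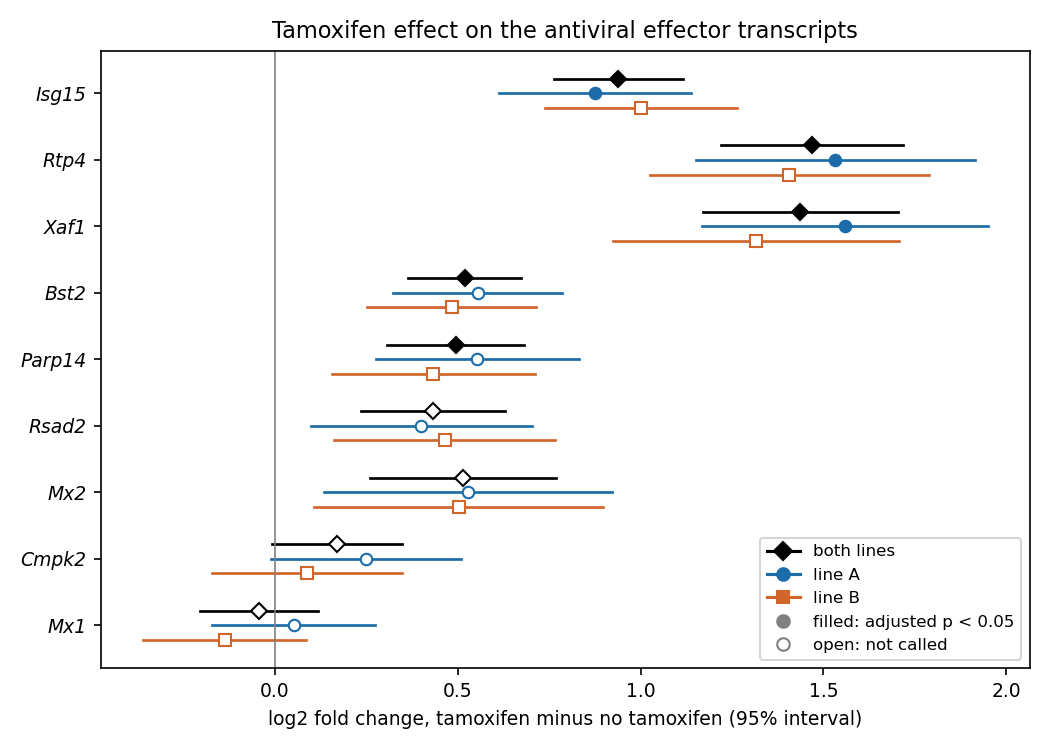
Log2 fold change with tamoxifen of each effector transcript (points) and its 95% interval (lines), over both lines in black, in line A in blue and in line B in orange; filled points passed an adjusted p of 0.05. The intervals of the lines overlap for every transcript, with estimates from about 1.3 to 1.6 for Rtp4 and Xaf1 down to Mx1 on either side of 0.

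In line A alone, 3 of the 9 transcripts rose, Xaf1 (1.56, SE 0.17, adjusted p = 0.011), Rtp4 (1.53, SE 0.17, adjusted p = 0.011) and Isg15 (0.88, SE 0.12, adjusted p = 0.017), where 0.654% of all probe sets rose. Bst2 (0.55, SE 0.10, adjusted p = 0.056) and Parp14 (0.55, SE 0.12, adjusted p = 0.11) did not pass, nor did the other 4. All 9 differences were above 0, with a median of 0.55. In 8 of 9, all but Mx1, both samples with tamoxifen lay above both without, against 21.3% of all probe sets. The 3 calls were lost when any 1 line A sample was left out, which leaves 1 in its group. Nearly all line A calls over all probe sets were lost in these fits as well. The differences in these fits stayed between 1.40 and 1.72 for Xaf1, 1.36 and 1.71 for Rtp4 and 0.77 and 0.99 for Isg15. The 3 calls were also lost when every probe set of the array, named or not, was tested (0 of 9), with the same differences. That test called 1 probe set of the whole array in line A, against 180 of the 23410 named ones.

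In line B alone, 0 of the 9 passed, where 0.0128% of all probe sets did. The smallest adjusted p-values belonged to Isg15 (1.00, SE 0.12, adjusted p = 0.077), Rtp4 (1.41, SE 0.17, adjusted p = 0.083) and Xaf1 (1.32, SE 0.17, adjusted p = 0.095). At an unadjusted p under 0.05 there were 7 of 9 in limma, all higher with tamoxifen, against 2.63% of all probe sets. In 7 of 9, all but Cmpk2 and Mx1, both samples with tamoxifen lay above both without, against 12.1% of all probe sets. The median difference was 0.48. Xaf1 without tamoxifen had the widest gap of any of the 9 between the samples of a group, 7.63 and 7.14. Without line B PKM2 replicate 1, Xaf1 (1.56) and Rtp4 (1.59) passed in line B, both with an adjusted p of 0.042; over all alternatives theirs ran from 0.042 to 0.40.

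Tested directly in limma, the effect of tamoxifen differed between line A and line B for 0 of the 9 transcripts, with 0 at an unadjusted p under 0.05, against 0% and 3.02% of all probe sets. The line B effect minus the line A effect was 0.12 for Isg15 (95% interval -0.25 to 0.50), -0.13 for Rtp4 (-0.66 to 0.41), -0.24 for Xaf1 (-0.80 to 0.31) and -0.07 for Bst2 (-0.40 to 0.26). The intervals, which are not adjusted for the number of probe sets, reached from 0.32 to 0.56 to either side of their estimates. A difference between the lines smaller than this reach would not have had an unadjusted p under 0.05 in limma. To pass after adjustment over all probe sets it would have had to be larger still.

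Levels of the transcripts were also set side by side between the lines. Without tamoxifen 0 of 9 passed the test of line B against line A, where 0.239% of all probe sets did, and with tamoxifen 0 of 9, where 0.816% did. At an unadjusted p under 0.05 there was 1 of 9 in limma in each comparison, against 5.16% and 6.74% of all probe sets, and both times it was Rtp4. It was lower in line B by 0.39 without tamoxifen (log2 difference -0.39, SE 0.17, adjusted p = 0.93) and by 0.52 with it (-0.52, SE 0.17, adjusted p = 0.44). These comparisons use the same arrays as those of tamoxifen.

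Replicates of a group moved together only in part. In line A with tamoxifen, replicate 2 read higher than replicate 1 for 7 of 9 transcripts, by a median of 0.20, while the median over all probe sets was 0.00; in line A without tamoxifen it did for 6 of 9, by a median of 0.15. Over all probe sets the median in line A without tamoxifen was -0.01. In line B the split was 6 and 3 with tamoxifen and 5 and 4 without. The medians of the 9 there were 0.034 with and 0.002 without, no higher than those over all probe sets, 0.042 and 0.031.

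The genes whose levels over the 8 samples were most like the mean of the 9 effectors, of 19930 genes compared, were Ifit1 (Pearson r = 0.998), Igf1 (0.99), Ddx58 (0.983), Usp18 (0.981) and Ifit3 (0.98). Igf1, an insulin-like growth factor, is the only 1 of these 5 that is not on the interferon lists used here; it went from 8.99 to 9.50. With 2 samples in each of 4 groups, these samples share the step with tamoxifen, and the likeness is given as a description.

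The rest of the pathway is given by list. Over all probe sets 0.701% rose and 0.41% fell. Of 36 measured interferon-induced genes outside the 9, 15 rose and 0 fell, with a median of 0.35. The smallest p-values belonged to Ifit1 (2.45, SE 0.14), the RNA sensor Ifih1 (1.12, SE 0.10), the helicase Ddx60 (0.85, SE 0.08) and the GTPase Irgm1 (0.92, SE 0.09). Of 13 measured genes of receptors, kinases, factors and regulators, 1 rose, Usp18, and 0 fell, with a median of 0.02. Stat2 and Irf9, parts of the factor that binds the response element, differed by 0.44 (SE 0.095, adjusted p = 0.068) and 0.36 (SE 0.09, adjusted p = 0.10) and did not pass, and Irf7, an interferon-induced factor, differed by -0.04 (SE 0.065, adjusted p = 0.90). Of 15 measured interferon genes 0 passed, with a median of -0.03. Ifnb1, the interferon that fibroblasts are known to make, read 6.12 without and 6.03 with tamoxifen (-0.09, SE 0.09, 95% interval -0.29 to 0.10). That is about as dim as Rsad2, which averaged 6.01, at percentile 24.2. Other interferon probe sets were brighter than the array medians of 7.17 to 7.24. Ifnl2 read 8.65 without and 8.52 with tamoxifen (-0.13, SE 0.06), and Ifna2 read 7.89 and 7.78 (-0.11, SE 0.08). Of the 15 differences 6 were above 0. Without detection calls a dim interferon probe set cannot be told from an absent transcript, and a brighter one is not shown to be present. These values thus do not show whether interferon transcripts changed. The GAAA pair was found in the promoters of 14 of 33 of the other interferon-induced genes, 2 of 12 signalling genes and 10 of 18 interferon genes present in the promoter table. Over all genes it was in 3.44% of promoters. The 2 measures are unlike, since a listed gene counted when any of its promoters held the pair and the 3.44% is a share of single promoters.

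**Figure D2:**
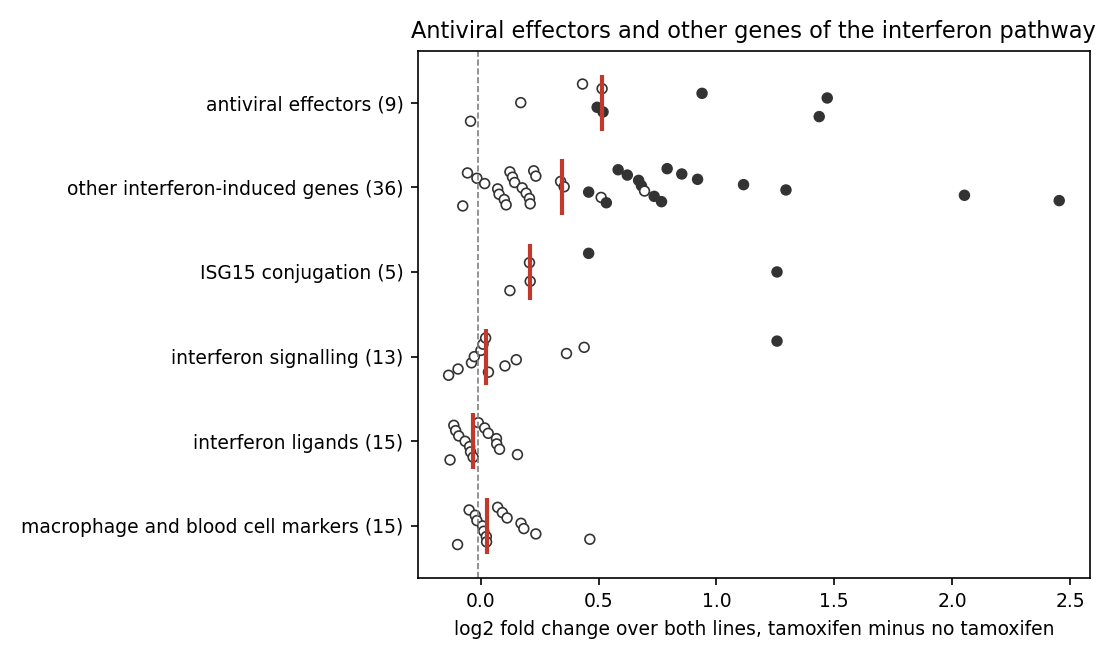
Log2 fold change over both lines for the 9 effectors and for 5 lists of genes (number measured in brackets), 1 point per gene, filled where the adjusted p was under 0.05; red bars are medians and the dashed line is the median of all probe sets, -0.01. The effectors and the other interferon-induced genes reach furthest to the right, with medians of 0.52 and 0.35, while the interferon ligands lie around 0; some genes are on more than 1 list.

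Of the 12 fibroblast markers, 2 rose with tamoxifen over both lines and 0 fell, against 0.701% and 0.41% of all probe sets, with a median of -0.02. The 2 that rose were the matrix proteoglycans Lum (1.33, SE 0.17, adjusted p = 0.0065) and Dcn (0.88, SE 0.15, adjusted p = 0.026). Only 4 of the 12 differences were above 0. The collagen transcripts Col1a1 (-0.45, SE 0.29, adjusted p = 0.71) and Col1a2 (-0.30, SE 0.09, adjusted p = 0.23) were lower and did not pass. Of the 12 mammary epithelial markers 0 passed in limma (1 had an unadjusted p under 0.05), with a median of -0.03 and a smallest adjusted p of 0.36. Whether the markers' changes have a part in those of the effectors was not tested.

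Macrophages and other blood cells also carry interferon-induced transcripts. Of 15 measured markers of such cells out of 16, 0 passed with tamoxifen, with a median of 0.03. Their summed log2 level lay between 95.45 and 96.95 in line A without tamoxifen, 96.42 and 97.01 with it, 101.88 and 102.06 in line B without and 103.66 and 104.08 with. The summed level was higher in line B than in line A in both conditions; between conditions it overlapped in line A and was higher with tamoxifen in line B. The pan-leukocyte marker Ptprc (0.23, SE 0.135) and the macrophage marker Adgre1 (0.18, SE 0.07) had adjusted p-values of 0.65 and 0.38. The macrophage lysozyme Lyz2 had the smallest of the list, 0.30 (difference 0.46, SE 0.16). In limma the unadjusted p was 0.016 for Lyz2 and 0.028 for Adgre1. Of the 15 differences 11 were above 0, and the lowest was that of Csf1r (-0.10, SE 0.07). In line B alone Cd14 differed by 0.42 (SE 0.13, adjusted p = 0.64) and Clec4n by 0.38 (SE 0.11, adjusted p = 0.65). Without tamoxifen Lyz2 averaged 7.10 in line A and 9.24 in line B. The part of such cells in the rise of the effectors was not tested. In bulk RNA, more cells of a responding kind and more RNA per cell cannot be told apart.

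**Figure D3:**
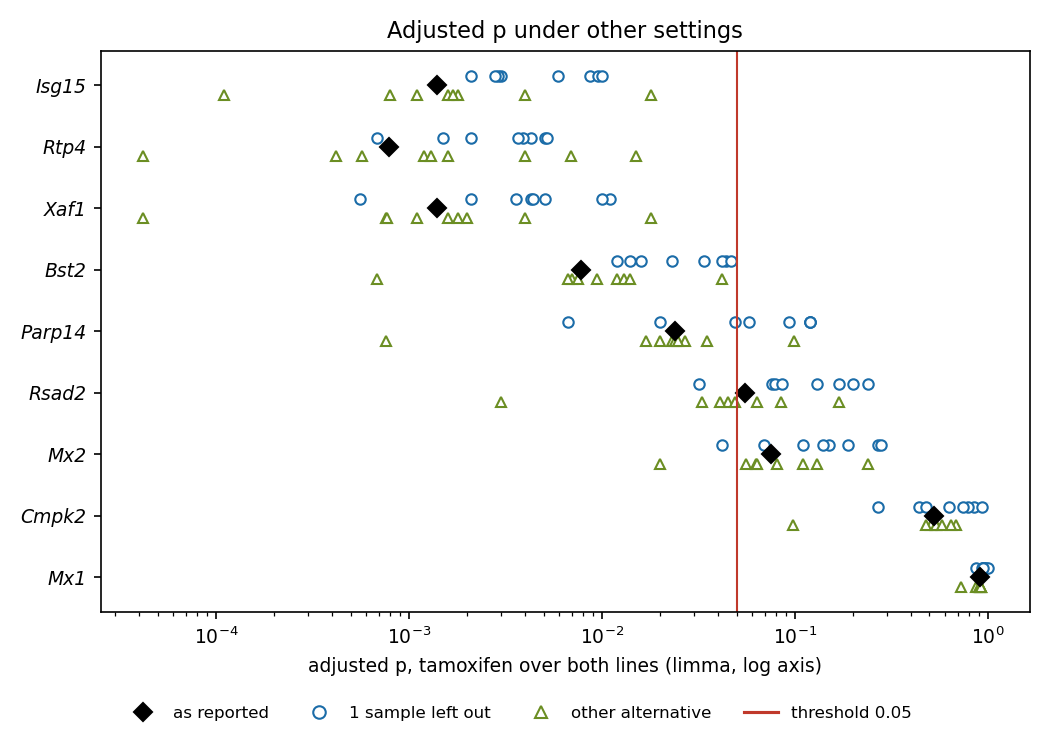
Adjusted p of the tamoxifen effect over both lines for each effector (log axis), as reported (diamonds), with 1 sample left out (circles) and under the other alternatives (triangles); the red line is the threshold of 0.05. Isg15, Rtp4, Xaf1 and Bst2 stay left of the line in every setting, Parp14, Rsad2 and Mx2 have points on both sides, and Cmpk2 and Mx1 stay right of it.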

How the data were processed

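Total RNA of 8 fibroblast samples was hybridised as biotinylated cRNA to Affymetrix arrays. Per the labels, RMA normalization was run by the authors in Expression Console (version not given in the sources used here); the deposited table holds the resulting log2 values, 1 column per sample, a scale that follows from RMA and from values between 2.61 and 14.12. RMA forces like distributions on all arrays.

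Groups came from the titles. Replicate numbers follow sample order and pair nothing. GEO's platform annotation named 23410 of 35556 probe sets, 21789 with 1 symbol and 1621 with several. The latter were kept, since Isg15 is among them, and all 23410 were fitted with limma 3.58.1 in R 4.3.3 (lmFit, eBayes): tamoxifen over both lines with a term for line, and 4 group means for the other 5 comparisons. Adjustment was by Benjamini-Hochberg, threshold 0.05. Genes on lists were represented by their brightest single-symbol probe set, and lists are described by counts and medians. The members and lists were chosen with earlier results of these data known. Every member was named; other genes were named by a rule (smallest p in a list, up to 4, the Isg15 conjugation genes, pathway factors, and the 5 most alike). Pkm, Parp9, Dtx3l, Lum, Dcn, Col1a1, Col1a2, Ptprc, Adgre1, Lyz2, Csf1r, Cd14, Clec4n and Ifi44l were singled out with values known. Scripts were tested on simulated data with known changes. The number of arrays limits the precision.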

Additional observations from a re-analysis of the deposited data

How the results depend on the processing

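Over both lines, the count of 5 effectors that rose stayed between 4 and 7 under 17 alternatives, 4 to 6 when 1 sample was left out. Isg15, Rtp4, Xaf1 and Bst2 kept their direction and their call in all of them (16 for Isg15, whose probe set has 2 symbols and is not among those with 1). The highest adjusted p-values were 0.018, 0.015, 0.018 and 0.047. Parp14 lost its call in 6 of 17, among them the test of every probe set (adjusted p = 0.099). Rsad2 passed in 6 of 16, with an adjusted p of 0.045 with 1 probe set per gene, 0.041 with arrays shifted to a common median, 0.033 with quantile normalization again, 0.049 with eBayes trend and robust, 0.003 with array weights and 0.032 without line B PKM1 replicate 1. Mx2 passed in 2 of 16, with array weights (0.02) and without line B PKM2 replicate 1 (0.042). Cmpk2 and Mx1 passed in 0 of 16. Cmpk2, Mx1, Mx2 and Rsad2 have no value without the 30% dimmest probe sets, to which they belong. Adjusted p-values ran from 0.003 to 0.24 for Rsad2 and from 0.02 to 0.28 for Mx2. In line A the count of 3 was 0 with every probe set tested, 5 with array weights and 5 when the 4 line A arrays were fitted alone, and between 0 and 3 when 1 sample was left out. In line B the count of 0 was between 0 and 2 when 1 sample was left out. The other 3 comparisons called 0 effectors in all 15 alternatives. Among single values, 2 that did not pass changed sign, Mx1 in line A, which ran from -0.038 (without line A PKM2 replicate 1) to 0.141 when 1 sample was left out, and Cmpk2 in line B, from -0.002 (without line B PKM1 replicate 2) to 0.181. Over all probe sets the count of 260 lay between 68 (without line A PKM1 replicate 2) and 1265 (array weights), with 74 when every probe set was tested and 140 with no term for the line; the count in line A of 180 lay between 0 and 686, in line B of 3 between 0 and 36, and those between the lines of 56 and 191 between 0 and 65 and between 0 and 204. The cause of these shifts was not tested. No paired analysis was possible because the labels number no replicates. Leaving out a sample leaves 1 in its group, which is assumed to vary like the other groups.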

Other observations

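Ifi44l lies next to Ifi44, with 0 genes between them in the RefSeq table, and was looked up after Ifi44 matched no named probe set. It read 5.71 without and 5.66 with tamoxifen over both lines (log2 difference -0.05, SE 0.08, 95% interval -0.22 to 0.13, adjusted p = 0.91). In line A the difference was -0.20 (SE 0.09) and in line B 0.11 (SE 0.09), and neither passed (adjusted p = 0.65 and 1).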
